A study of Mus musculus with 16 samples.

Results

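The genes described here are 9 receptors and transcription factors that set or read the hormone-responsive luminal state of the mammary gland: the oestrogen receptor alpha gene Esr1, the progesterone receptor gene Pgr, the prolactin receptor gene Prlr, the lineage factors Foxa1, Gata3 and Tbx3, the prolactin signal carriers Stat5a and Stat5b, and the transcriptional co-activator Cited1. Every probe annotated to 1 of these symbols was taken. That gave 16 of the 45281 probes on the array, for 8 of the 9 genes (of 19057 genes with a probe in all), and Prlr was not analysed here. A probe counted as detected on an array when its deposited detection p-value was under 0.05, and 9 of the 16 probes entered the tests because they were detected on at least 4 of 16 arrays, as 20152 of all probes did.

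The arrays, Illumina mouse BeadChips that read each probe as a mean bead intensity, held RNA of 4 mouse mammary tumour cell lines. MI6 and MI7 carry the d16HER2 transgene, a splice form of the HER2 receptor without exon 16, and WTHER2-1 and WTHER2-2 carry full-length (WT) HER2. No line without a HER2 transgene was compared, and each line is a single cell line of its own, so 2 lines stand for each transgene. The labels give neither the promoter of the transgenes nor the mouse strain, treatment or passage. Each line had 4 arrays, and the labels do not say whether these held RNA of separate cultures, so p-values that rest on arrays may measure technical spread alone. MI6 and MI7 were on BeadChips 1 and 2, WTHER2-2 replicates 3 and 4 on BeadChip 4 and its replicates 1 and 2 on BeadChip 3, and WTHER2-1 on BeadChips 5 and 6. No BeadChip held both transgenes, so BeadChip and transgene cannot be told apart. Median raw intensity ran from 83.49 to 148.7 per array, and 35.8% to 42.4% of probes were detected. Both low ends were on WTHER2-2 replicate 4. The WTHER2-1 arrays had medians of 136.4 to 148.7, and the arrays of the other lines 83.49 to 104.8.

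The WTHER2-2 arrays did not form 1 group. A list of 14 luminal epithelial markers had 8 and 6 genes detected on the replicates of BeadChip 4, against 13 and 12 on those of BeadChip 3, and the mean log2 intensity of its 12 measured genes was 7.51 and 6.21 against 10.43 and 10.29. A list of 12 fibroblast markers had 8 measured genes, whose mean was 12.17 and 11.76 on BeadChip 4, against 8.18 and 8.25 on BeadChip 3. MI6 arrays averaged 10.88 to 11 for the luminal list and 5.61 to 5.97 for the fibroblast list, MI7 arrays 11.16 to 11.28 and 5.96 to 6.24, and WTHER2-1 arrays 9.74 to 10.33 and 7.6 to 8.52. Of the luminal list Krt8 was detected on 16 arrays, Epcam on 13 and Krt19 on 0, and of the fibroblast list Vim on 16, Col1a2 on 10, and Lum and Fap on 0. Of 13 basal markers 6 were measured, with a mean of 7.65 and 6.96 on BeadChip 4, against 8.22 and 8.21 on BeadChip 3: Acta2 and Itgb4 were detected on 16 arrays, Krt14 on 15, and Krt5, Myh11, Myl9, Cnn1, Tagln and Lgr5 on 0. Of 10 endothelial and fat cell markers 4 were measured, with a mean of 7.71 and 6.82 on BeadChip 4, against 6.59 and 6.82 on BeadChip 3: Kdr was detected on 16 arrays, Lpl on 12, Tek on 9, Cd34 on 4, and Pecam1, Cdh5, Emcn and Plin1 on 0. Of 9 leukocyte markers with a probe, Csf1r was detected on 16 arrays and the others, Ptprc among them, on 0. The 2 WTHER2-2 BeadChips are therefore given separately. In bulk RNA, fewer cells of a type and less RNA per cell cannot be told apart.

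In the mammary gland, oestrogen acts on luminal cells that carry oestrogen receptor alpha. FOXA1 opens chromatin for that receptor and GATA3 keeps luminal cells differentiated, and the progesterone receptor gene is a classical oestrogen target. Prolactin acts through its receptor and JAK2 on STAT5A and STAT5B, which turn on milk protein genes. CITED1 binds oestrogen receptor alpha and strengthens transcription of some of its targets, and TBX3 is a T-box repressor that the gland needs to form.

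Promoter sequence is shown for the genes other than Tbx3 with at least 1 called difference below, so that a reader can see which hormone and lineage motifs stand next to their starts. RefSeq windows of build GRCm38.p6, 250 bases before to 50 after an annotated start, were matched for 8 of the 9 genes (15 windows), and Tbx3 was not matched. The Foxa1 window is chr12:57546062-57546361 on the minus strand, the second Esr1 window chr10:4709908-4710207 on the plus strand, the first Stat5a window chr11:100859406-100859705 on the plus strand and the third Cited1 window chrX:102250727-102251026 on the minus strand. Of the 15 windows, 8 held a match. Where a gene had several windows, 1 with a match is shown. The first Esr1 window and the first and second Cited1 windows held none. Letters run 5′ to 3′ on the gene's strand, and capitals mark the motif matches.
Foxa1: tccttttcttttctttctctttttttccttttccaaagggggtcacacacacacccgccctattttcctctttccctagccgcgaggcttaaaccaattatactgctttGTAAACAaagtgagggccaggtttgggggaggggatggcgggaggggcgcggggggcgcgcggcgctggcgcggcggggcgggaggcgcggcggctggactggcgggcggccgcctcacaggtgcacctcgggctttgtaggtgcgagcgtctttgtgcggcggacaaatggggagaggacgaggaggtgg
Esr1: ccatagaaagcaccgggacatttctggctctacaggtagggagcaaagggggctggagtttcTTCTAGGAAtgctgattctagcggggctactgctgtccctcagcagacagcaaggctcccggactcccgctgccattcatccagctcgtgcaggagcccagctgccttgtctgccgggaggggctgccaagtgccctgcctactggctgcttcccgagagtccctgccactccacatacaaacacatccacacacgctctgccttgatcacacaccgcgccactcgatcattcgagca
Stat5a: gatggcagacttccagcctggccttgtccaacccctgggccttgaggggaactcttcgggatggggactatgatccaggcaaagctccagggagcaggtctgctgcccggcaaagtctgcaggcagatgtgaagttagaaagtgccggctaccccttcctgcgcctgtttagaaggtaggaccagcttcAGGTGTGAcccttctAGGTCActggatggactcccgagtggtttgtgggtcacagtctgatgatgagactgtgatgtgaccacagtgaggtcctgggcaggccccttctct
Cited1: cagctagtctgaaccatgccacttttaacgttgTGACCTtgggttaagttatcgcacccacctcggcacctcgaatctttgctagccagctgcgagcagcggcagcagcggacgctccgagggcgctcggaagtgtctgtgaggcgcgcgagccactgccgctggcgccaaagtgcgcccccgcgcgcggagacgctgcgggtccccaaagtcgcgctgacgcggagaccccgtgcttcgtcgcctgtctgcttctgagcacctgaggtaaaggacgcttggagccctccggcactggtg

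Motifs were searched as exact letters on both strands, and no matches overlapped. The capitals in the Foxa1 window, at position -141 from the start, are the forkhead motif TGTTTAC read on the other strand, which 3.65% of all 32851 windows of this length hold. Those in the Esr1 window, at -188, fit the STAT motif TTCNNNGAA, held by 8.3% of windows. The Stat5a window has the T-box motif AGGTGTGA at -61, held by 1.28%, and the nuclear receptor element AGGTCA at -46, held by 16.3%. The Cited1 match at -217 is that same element on the other strand. The GATA motif AGATAA, held by 11.2% of windows, had no match in the members' windows. The Prlr windows had a T-box match, a forkhead match and a STAT match, 1 Stat5b window had the AGGTCA element, and the Gata3 and Pgr windows had no match. These are matches of letters only.

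The hormone receptors were dim or undetected. All values that follow are log2 intensities after background correction and quantile normalization. Of the 4 Esr1 probes, ILMN_2726412 was detected on 12 arrays and the other 3 on none, where they lay between 4.56 and 5.69. Probe ILMN_2726412 gave 5.85, 5.75, 5.79 and 5.92 in MI6, 5.75, 5.0, 5.22 and 5.20 in MI7, 5.68, 5.82, 5.32 and 5.64 in WTHER2-1, whereas WTHER2-2 had 7.43 and 6.62 on BeadChip 4 and 7.50 and 8.12 on BeadChip 3. All 4 WTHER2-2 arrays lay above the 12 others. WTHER2-1 overlapped MI6 and MI7, which met at 5.75. The probe was detected on 4, 1, 3 and 4 arrays of MI6, MI7, WTHER2-1 and WTHER2-2.

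A difference between lines was called when its Benjamini-Hochberg adjusted p in the limma fit over all tested probes was under 0.05 and its size at least 1 on the log2 scale. By that rule Esr1 was lower in MI6 than in WTHER2-2 by a log2 difference of -1.59 ± 0.25 (SE; adjusted p = 0.000173) and in MI7 by -2.13 ± 0.25 (adjusted p = 1.23e-05), and it was lower in WTHER2-1 than in WTHER2-2 by -1.80 ± 0.25 (adjusted p = 7.72e-05). Against WTHER2-1, MI6 differed by 0.21 ± 0.25 and MI7 by -0.32 ± 0.25 (adjusted p = 0.564 and 0.378). With the WTHER2-2 BeadChips apart, the mean of the d16HER2 lines was lower than BeadChip 4 by -1.46 ± 0.25 and lower than BeadChip 3 by -2.25 ± 0.25 (adjusted p = 0.000401 and 2.66e-05), so it was called against each. In order of mean, WTHER2-2 BeadChip 3 (7.81) and BeadChip 4 (7.03) did not differ by the rule (BeadChip 4 minus BeadChip 3 -0.79 ± 0.32, adjusted p = 0.0877), nor did MI6 (5.83), WTHER2-1 (5.61) and MI7 (5.29) among themselves. Without background correction and in the authors' table the differences from WTHER2-2 shrank to -0.90 in MI6 and -0.99 in WTHER2-1, and those of the d16HER2 mean from BeadChip 4 to -0.76, under the size limit, with adjusted p at most 0.000909.

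Pgr stayed below detection on 15 of 16 arrays. Its probe ILMN_2657452 gave 4.69, 4.73, 4.88 and 4.81 in MI6, 4.88, 4.94, 4.78 and 4.82 in MI7, 4.97, 4.85, 5.05 and 4.89 in WTHER2-1, whereas WTHER2-2 had 5.07 and 4.92 on BeadChip 4 and 5.30 and 5.92 on BeadChip 3. The 1 detected value, 5.92, was on WTHER2-2 replicate 2, the array that also had the highest Esr1 value. The second probe, ILMN_2570332, lay between 4.65 and 4.90 and was detected on none. Neither entered the tests, and a progesterone receptor transcript below the arrays' detection would not be seen.

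**Figure D1:**
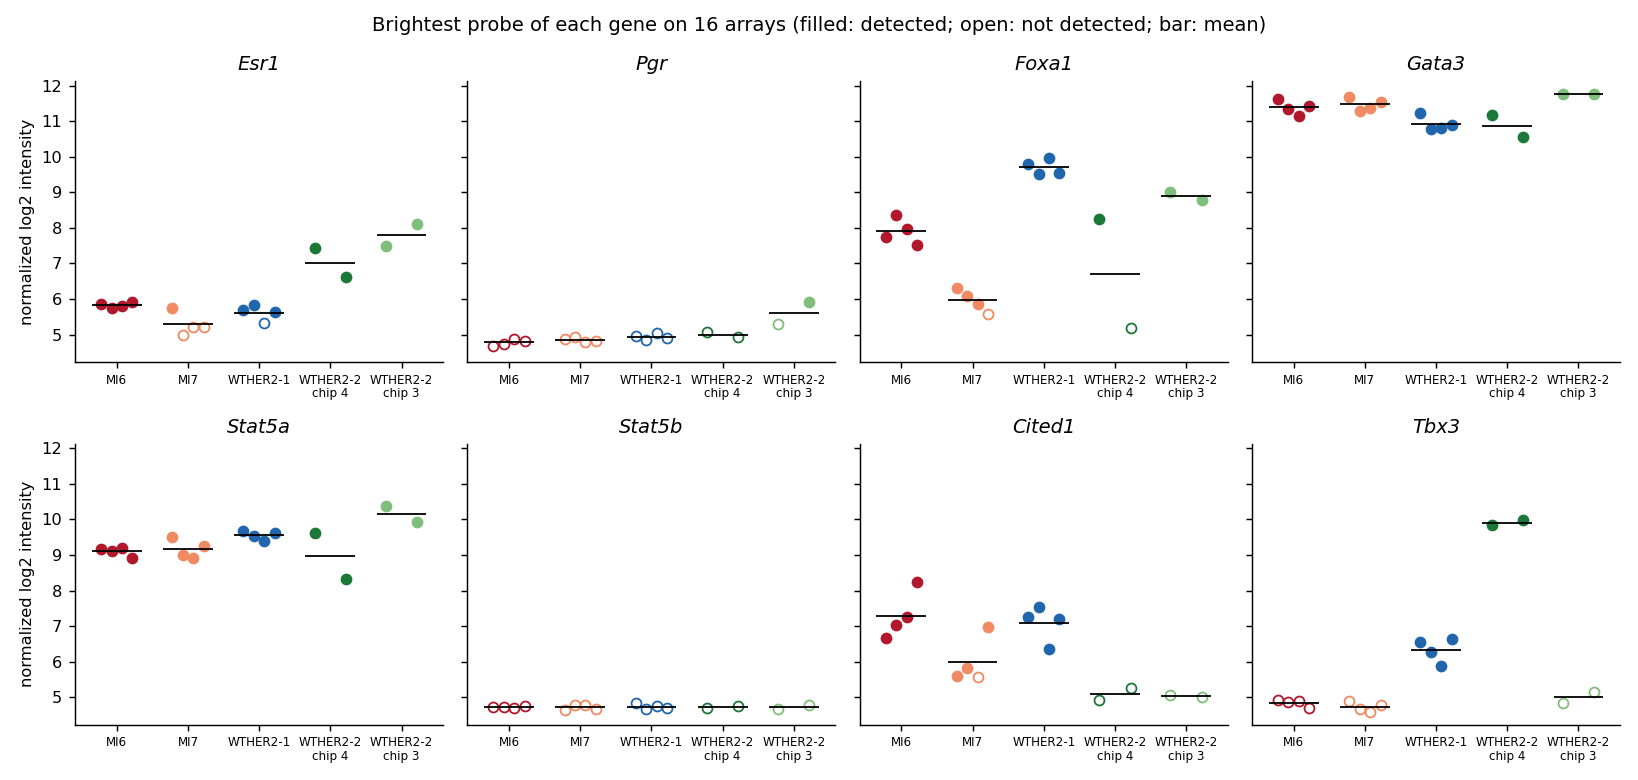
Normalized log2 intensity (vertical axis) of the probe with the highest mean of each of the 8 measured genes on 16 arrays, in MI6, MI7, WTHER2-1 and WTHER2-2 by BeadChip. Filled points were detected, open points were not, and bars are means. Esr1 stands highest in WTHER2-2 (6.62 to 8.12), Cited1 is undetected there (4.92 to 5.26), Tbx3 is at 9.84 and 9.98 on BeadChip 4 of WTHER2-2, and Gata3 is detected on all arrays.

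Among the lineage factors, Foxa1, the pioneer factor of oestrogen receptor sites, varied most between arrays after Tbx3. Its 1 probe, ILMN_1237195, gave 7.75, 8.37, 7.97 and 7.52 in MI6, 6.32, 6.08, 5.86 and 5.59 in MI7, 9.79, 9.51, 9.96 and 9.53 in WTHER2-1, whereas WTHER2-2 had 8.26 and 5.17 on BeadChip 4 and 9.0 and 8.77 on BeadChip 3. The 5.59 of MI7 and the 5.17 of WTHER2-2 replicate 4 were not detected. Each line but WTHER2-2 kept its arrays together, MI7 below MI6 and both below WTHER2-1, while WTHER2-2 overlapped both MI6 and, with its replicate 4 on BeadChip 4, the level of an undetected probe.

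Foxa1 was lower in MI7 than in WTHER2-1 by -3.74 ± 0.59 on the log2 scale, 13.4-fold (adjusted p = 0.000222), and this call held under all 26 alternatives, with differences of -3.85 to -2.67. The mean of both d16HER2 lines was lower than WTHER2-1 by -2.77 ± 0.41, 6.82-fold (adjusted p = 0.000185). MI6 alone was lower than WTHER2-1 by -1.80 ± 0.59 (adjusted p = 0.0303), a call lost in 7 alternatives: without MI6 replicate 1, 3 or 4, without WTHER2-1 replicate 1, 3 or 4, and with BeadChip as a random block, at differences of -1.86 to -1.67 and adjusted p of 0.0531 to 0.0796. Against the BeadChip 3 arrays of WTHER2-2 the d16HER2 mean was lower by -1.95 ± 0.54 (adjusted p = 0.0133), which was -1.85 and -2.07 without replicate 1 and 2 (adjusted p = 0.107 and 0.0935). Against BeadChip 4 it was 0.22 ± 0.54 (adjusted p = 0.759), and there 1 array set the sign: 1.77 without WTHER2-2 replicate 3, and -1.33 without replicate 4.

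The d16HER2 lines did not differ in Foxa1 by the rule, at 1.94 ± 0.59 in MI6 minus MI7 (adjusted p = 0.191), although their arrays did not overlap. That fit shares 1 estimate of the spread among all lines, and without WTHER2-2 replicate 4 the same difference was 1.95 ± 0.23 (adjusted p = 0.000132). Within BeadChip 1 it was 1.85 ± 0.68 and within BeadChip 2 it was 2.02 ± 0.68 (adjusted p = 0.427 and 0.459). With BeadChip as a block within the 8 d16HER2 arrays, it was 1.94 ± 0.20 (adjusted p = 0.000769).

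Gata3, which keeps luminal cells differentiated, was bright in every line and was detected on all 16 arrays. Probe ILMN_1248843 gave 11.63, 11.35, 11.14 and 11.44 in MI6, 11.67, 11.28, 11.38 and 11.55 in MI7, 11.23, 10.78, 10.80 and 10.90 in WTHER2-1, whereas WTHER2-2 had 11.16 and 10.56 on BeadChip 4 and 11.76 and 11.77 on BeadChip 3. The values ran from 10.56 to 11.77. The BeadChip 3 arrays of WTHER2-2 lay above all others and MI7 lay above WTHER2-1 and BeadChip 4, while MI6 overlapped MI7, WTHER2-1 and BeadChip 4. No pair of lines was called for Gata3. The d16HER2 mean exceeded WTHER2-1 by 0.50 ± 0.14 and WTHER2-2 BeadChip 4 by 0.57 ± 0.18, past the adjusted p (0.0134 and 0.0225) but under the size limit, and differed from BeadChip 3 by -0.33 ± 0.18 (adjusted p = 0.185).

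Of the STAT5 genes, 1 was detected and 1 was not. Stat5b had only 1 probe, and a Stat5b transcript below the arrays' detection or missed by that probe would not be seen. Stat5a was detected by both of its probes on all 16 arrays, whereas the Stat5b probe ILMN_2746194 was detected on none and lay between 4.63 and 4.85. The brighter Stat5a probe, ILMN_2976191, gave 9.16, 9.12, 9.21 and 8.92 in MI6, 9.51, 9.01, 8.92 and 9.26 in MI7, 9.68, 9.53, 9.40 and 9.63 in WTHER2-1, whereas WTHER2-2 had 9.63 and 8.33 on BeadChip 4 and 10.37 and 9.94 on BeadChip 3. The BeadChip 3 arrays were the highest of all, and replicate 4 on BeadChip 4 the lowest. The dimmer probe, ILMN_2976188, averaged 6.46 ± 0.18 in MI6 and 6.08 ± 0.27 in MI7, and its mean was 6.62 ± 0.33 in WTHER2-1 and 6.98 ± 0.37 in WTHER2-2 (SD, n = 4 arrays each).

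No pair of lines was called for either Stat5a probe with all arrays, and without the BeadChip 4 arrays MI6 was lower than WTHER2-2 at ILMN_2976191 by -1.05 ± 0.19 (adjusted p = 0.000514). At ILMN_2976188, MI7 was lower than WTHER2-2 by -0.90 ± 0.22 (adjusted p = 0.00463), under the size limit. Without WTHER2-2 replicate 4 this was -1.09 ± 0.20 and was called (adjusted p = 0.000861). At ILMN_2976191 the d16HER2 mean was lower than the BeadChip 3 arrays of WTHER2-2 by -1.02 ± 0.28 (adjusted p = 0.0128) and differed from BeadChip 4 by 0.16 ± 0.28 (adjusted p = 0.651). That call was lost in 9 alternatives, at differences of -1.23 to -0.81, among them leaving out MI6 replicate 4, MI7 replicate 2 or 3, or WTHER2-2 replicate 1 or 2. Stat5b is a near copy of Stat5a, and whether their probes share sequence was not checked here.

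Cited1, the oestrogen receptor co-activator, was detected in 3 lines and not in WTHER2-2. Probe ILMN_1213474 gave 6.66, 7.02, 7.25 and 8.23 in MI6, 5.60, 5.81, 5.57 and 6.98 in MI7, 7.26, 7.54, 6.35 and 7.20 in WTHER2-1, whereas WTHER2-2 had 4.92 and 5.26 on BeadChip 4 and 5.05 and 5.01 on BeadChip 3. All 4 WTHER2-2 arrays lay below all others, on both BeadChips, and none was detected, nor was MI7 replicate 3. Where a group is undetected on all its arrays, a fold is given as a bound against the dimmest detected signal of each of those arrays. The call and its adjusted p come from the fitted difference, which is larger than that bound.

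Cited1 was at least 3.05-fold higher in MI6 than in WTHER2-2 (means 7.29 and 5.06, adjusted p = 0.000183) and at least 2.64-fold higher in WTHER2-1 than in WTHER2-2 (7.09 and 5.06, adjusted p = 0.00055). Both calls held under all 26 alternatives. In MI7, at a mean of 5.99, it was not called against WTHER2-2 (adjusted p = 0.052). The bound there was 1.24-fold and leaned on MI7 replicate 4, at 6.98, where the other MI7 arrays were at 5.57 to 5.81. With the BeadChips apart, the d16HER2 mean of 6.64 was at least 1.73-fold above BeadChip 4 and at least 2.18-fold above BeadChip 3 (means 5.09 and 5.03, adjusted p = 0.00276 and 0.00327). Without WTHER2-2 replicate 2 the adjusted p against BeadChip 3 was 0.0507, and without background correction and in the authors' table the fitted differences from both BeadChips were under the size limit.

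Cited1 was lower in MI7 than in WTHER2-1 by -1.10 ± 0.36 (adjusted p = 0.0317). That call was lost in 11 of 26 alternatives, at -1.10 to -0.58 with adjusted p of 0.0419 to 0.0948, including without MI7 replicate 1, 2 or 3 and without WTHER2-1 replicate 1, 2 or 4. MI6 minus MI7 was 1.30 ± 0.36 (adjusted p = 0.117), 1.14 ± 0.44 within BeadChip 1 and 1.47 ± 0.44 within BeadChip 2, and 1.63 ± 0.33 without MI7 replicate 4, when it was called (adjusted p = 0.0249). In order of mean, MI6 (7.29) and WTHER2-1 (7.09) did not differ by the rule (0.20 ± 0.36, adjusted p = 0.709), MI7 (5.99) came next, and WTHER2-2 (5.06) was lowest.

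Tbx3, the T-box repressor, was the member that differed most between the WTHER2-2 BeadChips. Its probe ILMN_1247220 gave 4.93, 4.86, 4.89 and 4.69 in MI6, 4.89, 4.67, 4.59 and 4.78 in MI7, 6.56, 6.28, 5.88 and 6.65 in WTHER2-1, whereas WTHER2-2 had 9.84 and 9.98 on BeadChip 4 and 4.85 and 5.15 on BeadChip 3. It was detected on all WTHER2-1 arrays and on both BeadChip 4 arrays of WTHER2-2, and on none of the 8 d16HER2 arrays or the BeadChip 3 arrays. The 3 levels (undetected, WTHER2-1, BeadChip 4) did not overlap.

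The other Tbx3 probes gave the BeadChip order on a smaller scale. ILMN_3139514 was at 8.62 and 8.78 on BeadChip 4 against 5.0 and 4.81 on BeadChip 3, and at 5.53, 5.32, 5.19 and 5.54 in WTHER2-1. ILMN_1228778 was at 7.16 and 8.0 on BeadChip 4 against 4.80 and 4.86 on BeadChip 3, and at 5.66, 4.87, 5.0 and 5.65 in WTHER2-1. In MI6 and MI7 both stayed undetected, at most 5.05. ILMN_3061990 was at 6.46 and 6.46 on BeadChip 4 against 5.67 and 5.74 on BeadChip 3, and at 5.33 to 5.82 in MI6, MI7 and WTHER2-1. ILMN_1247220 and ILMN_1228778 passed the detection filter through WT HER2 arrays alone, so they had to differ between some arrays to be tested, and ILMN_3139514 was detected on 3 arrays and was not tested.

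At ILMN_1247220 the BeadChip 4 arrays of WTHER2-2 were at least 20.9-fold above its BeadChip 3 arrays (means 9.91 and 5.0, adjusted p = 6.6e-08). The d16HER2 lines, at a mean of 4.79, were at least 19.4-fold below BeadChip 4 (adjusted p = 1.1e-09) and at least 1.64-fold below WTHER2-1 (mean 6.34, adjusted p = 6.18e-06). Against BeadChip 3 neither group was detected, and no fold is given. WTHER2-1 was at least 1.77-fold above BeadChip 3 (adjusted p = 0.000683) and lower than BeadChip 4 by -3.56 ± 0.22 (adjusted p = 1.18e-07). The calls of WTHER2-1 against the d16HER2 lines and against BeadChip 3 were lost, by size, without background correction, with an offset of 50 and in the authors' table.

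In the fit of the 4 lines, which averages both WTHER2-2 BeadChips, ILMN_1247220 was at least 3.53-fold lower in MI6 and at least 3.55-fold lower in MI7 than in WTHER2-2, where 2 of 4 arrays detected it (means 4.84 and 4.73, against 7.45, adjusted p = 0.0328 and 0.0266). Without the BeadChip 4 arrays no group of these comparisons detected the probe and the calls were lost (adjusted p = 0.577 and 0.323), as they were without WTHER2-2 replicate 3 (adjusted p = 0.112 and 0.0919) or 4 (adjusted p = 0.104 and 0.0839). Leaving out any 1 MI6 array raised the adjusted p of MI6 against WTHER2-2 to 0.059 to 0.0629, and leaving out MI7 replicate 2 or 3 that of MI7 against WTHER2-2 to 0.0539 and 0.0568. ILMN_1228778 was at least 1.49-fold and 1.5-fold lower in MI6 and MI7 than in WTHER2-2 (means 4.77 and 4.73, against 6.20, adjusted p = 0.0461 and 0.0408), and these calls were lost in 15 and 12 of 19 alternatives. Against WTHER2-1, ILMN_1247220 was not called in MI6 or MI7 with all arrays (bounds of 1.64-fold and 1.65-fold, adjusted p = 0.226 and 0.203). It was called in both without the BeadChip 3 arrays (adjusted p = 7.02e-06 and 3.92e-06) and when those of BeadChip 4 were left out (adjusted p = 3.43e-06 and 1.86e-06). WTHER2-1 minus WTHER2-2 at that probe was -1.11 ± 0.90 (adjusted p = 0.365) with all arrays and -3.58 ± 0.21 without the BeadChip 3 arrays, and its sign turned without the BeadChip 4 arrays (adjusted p = 0.000121).

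**Figure D2:**
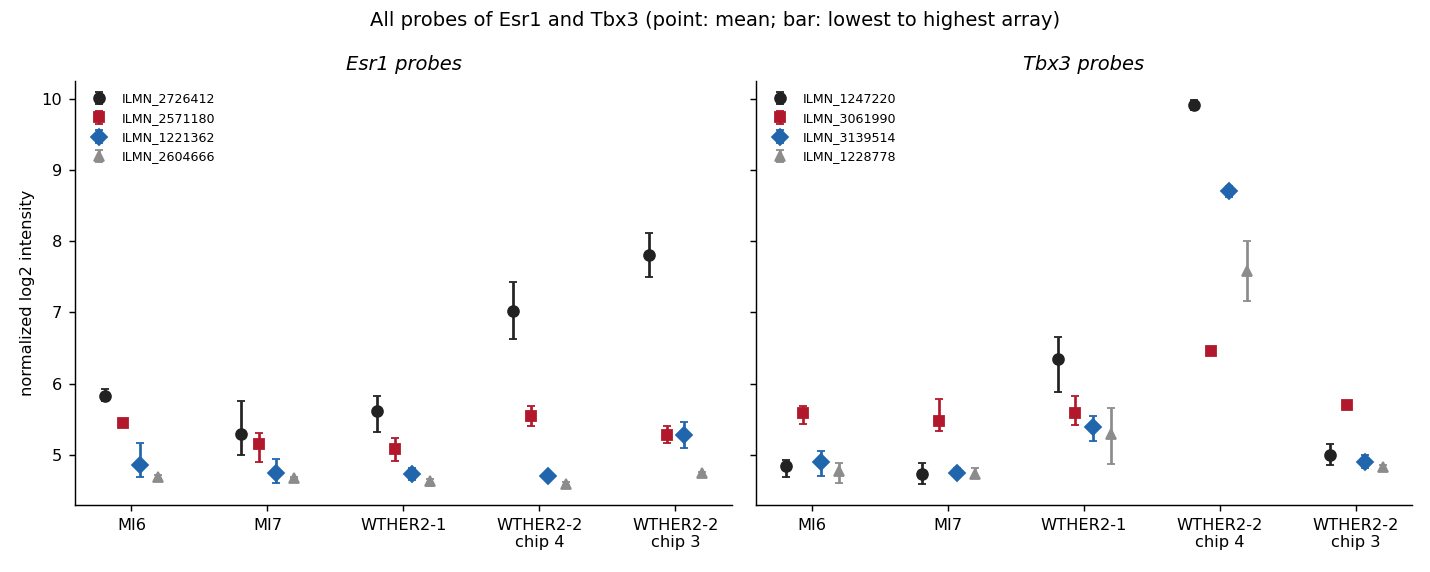
Normalized log2 intensity (vertical axis) of each of the 4 Esr1 probes and the 4 Tbx3 probes by line, with WTHER2-2 split by BeadChip. Points are means and bars run from the lowest to the highest array. One Esr1 probe rises above the others in WTHER2-2 (means 7.03 and 7.81), while all 4 Tbx3 probes are highest on BeadChip 4 of WTHER2-2.

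No member probe was called between the transgenes. A probe was called apart when each of the 4 possible d16HER2 minus WT HER2 line differences was called, all in 1 direction, and this held for 0 of the 9 tested member probes, where 4.65% of all tested probes were apart (3.48% when the WTHER2-2 BeadChips were kept separate, which makes 6 pairs, also 0 members). The line-level test, limma on the 4 line means, called 0 of 9 member probes at an adjusted p under 0.05 and 2 at an unadjusted p under 0.05, where the shares of all probes were 0.635% and 18.8%. The smallest p that an exact two-sided permutation of these 4 line means allows is 0.333. Those 2 probes were of Tbx3 and were undetected on all d16HER2 arrays. For ILMN_1247220 the MI6 and MI7 means were 4.84 and 4.73, against 6.34 and 7.45 for WTHER2-1 and WTHER2-2 (adjusted p = 0.124), and ILMN_1228778 averaged 4.77 and 4.73 in MI6 and MI7, against 5.30 and 6.20 in WTHER2-1 and WTHER2-2 (adjusted p = 0.246).

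The other line-level differences did not pass the test, adjusted or not. Foxa1 differed by -1.82 ± 0.96, Esr1 by -0.96 ± 0.67, Cited1 by 0.57 ± 0.85, Gata3 by 0.31 ± 0.21, Tbx3 ILMN_3061990 by -0.30 ± 0.24, and Stat5a by -0.42 ± 0.21 and -0.53 ± 0.27, with adjusted p of 0.364 to 0.777. For Esr1 the value rested on WTHER2-2: without WTHER2-1 it was -1.84 ± 0.29 (adjusted p = 0.029), and without WTHER2-2 it was -0.06. The line-level difference of Tbx3 ILMN_1247220 was -1.60 ± 0.15 without WTHER2-2. It was -1.71 ± 0.18 without WTHER2-2 replicate 4, when the probe passed the line-level test (adjusted p = 0.0477). That probe was undetected on all d16HER2 arrays and passed the detection filter through WT HER2 arrays alone, so the pass follows in part from the filter.

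By pairs of lines, 1 of 9 member probes was called in MI6 against WTHER2-1 (14.1% of all tested probes), 4 in MI6 against WTHER2-2 (18.6%), 2 in MI7 against WTHER2-1 (12.9%) and 4 in MI7 against WTHER2-2 (18.3%). These comparisons share their lines. Against WTHER2-2, the called probes were Esr1, ILMN_1228778 and ILMN_1247220 of Tbx3 with Cited1 in MI6 and with Foxa1 in MI7. Foxa1 in MI7 minus WTHER2-2 was -1.83 ± 0.59 (adjusted p = 0.0236). It was not called without MI7 replicate 3 or 4, without WTHER2-2 replicate 1, 2 or 3, or with BeadChip as a random block (-1.83 to -1.44), nor without the BeadChip 3 arrays (-0.76 ± 0.56).

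With the WTHER2-2 BeadChips apart, the d16HER2 mean was called against WTHER2-1 for 2 of 9 member probes (14.6% of all), against BeadChip 4 for 4 (25.3%) and against BeadChip 3 for 4 (17.4%). Foxa1 and Tbx3 ILMN_1247220 were lower than in WTHER2-1. Esr1 was lower and Cited1 higher against both BeadChips, with both Tbx3 probes lower than on BeadChip 4, and Foxa1 and Stat5a ILMN_2976191 lower than on BeadChip 3. In the main fit Esr1 and Cited1 were thus the members called for the d16HER2 mean against both WTHER2-2 BeadChips. Without background correction and in the authors' table, Esr1 against BeadChip 4 was under the size limit (-0.76). So was Cited1 against BeadChip 4 and BeadChip 3 (fitted at 0.81 and 0.84). For Cited1, MI7 alone was not called against WTHER2-2 (adjusted p = 0.052). WTHER2-1 was also called against BeadChip 4 and BeadChip 3 for both genes. There Esr1 was lower in WTHER2-1 (-1.41 and -2.20) and Cited1 at least 2.36-fold and 2.96-fold higher. The Esr1 call of WTHER2-1 against BeadChip 4 was lost, by size, in 3 alternatives. These were no background correction (-0.73), an offset of 50 (-0.99) and the authors' table (-0.73).

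**Figure D3:**
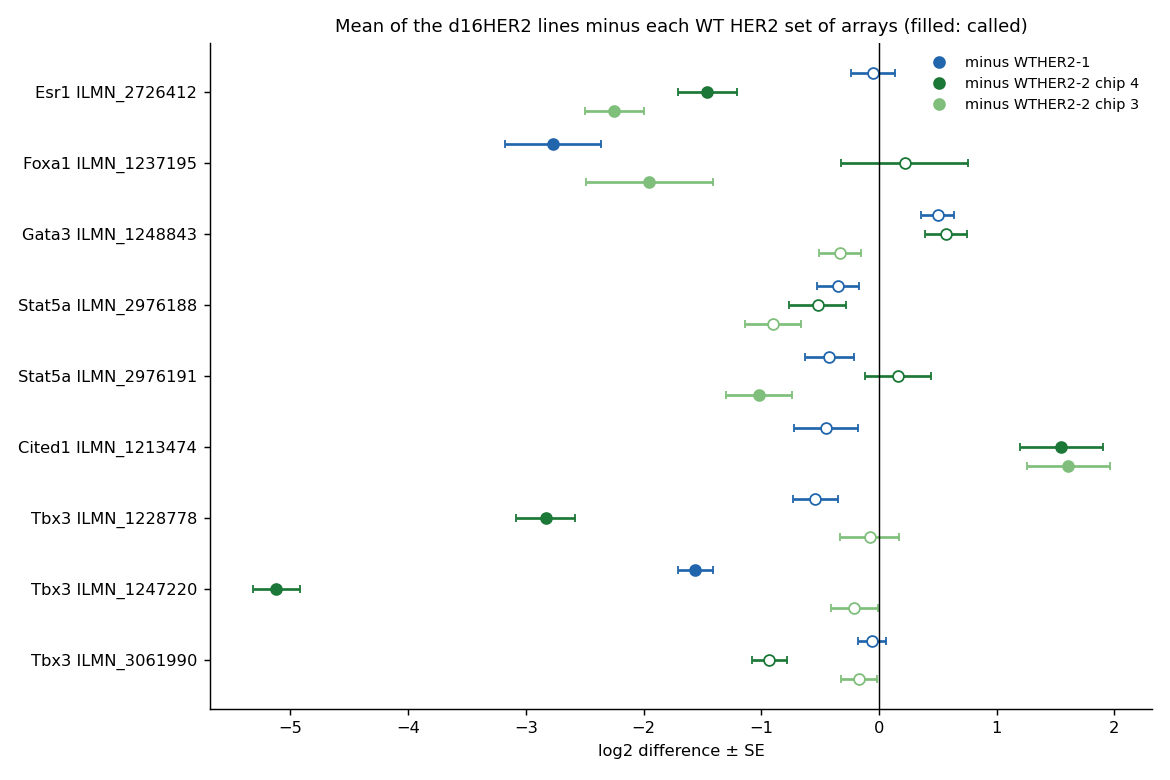
Log2 difference ± SE (horizontal axis) of the mean of the d16HER2 lines minus WTHER2-1, minus BeadChip 4 of WTHER2-2 and minus BeadChip 3 of WTHER2-2, for the 9 tested member probes (rows). Filled points were called, and for Tbx3 and Cited1 against groups that did not detect them the points are fitted differences and no measured folds. Esr1 lies at -1.46 and -2.25 against the WTHER2-2 BeadChips but at -0.05 against WTHER2-1, and no probe is filled in all 3 comparisons.

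Of the lines of the same transgene, the WT HER2 pair differed in some of these genes by the rule and the d16HER2 pair did not. For Foxa1 this came from the adjustment alone, which depends on all probes of a pair. MI6 minus MI7 was 1.94 ± 0.59 and WTHER2-1 minus WTHER2-2 was 1.90 ± 0.59. Their unadjusted p in the limma fit was 0.00485 and 0.00548, and their adjusted p 0.191 and 0.0229. MI6 and MI7 differed at 0 of 9 member probes by the rule and at 3 (Esr1, Foxa1 and Cited1) at an unadjusted p under 0.05, where 1% of all tested probes were called and 8.83% had an unadjusted p under 0.05. Within BeadChip 1 and within BeadChip 2 they also differed at 0, where 0.63% and 0.6% of all were called. WTHER2-1 and WTHER2-2 differed at 3 of 9 (14.5% of all): Esr1 was lower, and Foxa1 (1.90 ± 0.59, adjusted p = 0.0229) and Cited1 were higher, in WTHER2-1.

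Against BeadChip 4 of WTHER2-2, WTHER2-1 was called at 5 of 9 member probes (22.7% of all), and against BeadChip 3 at 3 (15.9%). Foxa1 was higher in WTHER2-1 than on BeadChip 4 by 2.99 ± 0.59 (adjusted p = 0.00151) and differed from BeadChip 3 by 0.82 ± 0.59 (adjusted p = 0.332). The Foxa1 call between the WT HER2 lines was lost without WTHER2-1 replicate 1 or 3 (1.87 and 1.81), without the BeadChip 4 arrays (0.81 ± 0.25, under the size limit) and with BeadChip as a random block.

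Within WTHER2-2, BeadChip 4 and BeadChip 3 differed at 4 of 9 member probes, where 17.3% of all tested probes were called. Tbx3 was higher on BeadChip 4 at ILMN_1247220 and at ILMN_1228778, there by at least 4.17-fold (adjusted p = 5.16e-05), and both calls held under every alternative run for them, 24 and 18. Foxa1 was lower on BeadChip 4 by -2.17 ± 0.68 (adjusted p = 0.0329) and Stat5a ILMN_2976191 by -1.18 ± 0.35 (adjusted p = 0.0259). Both of these rested on replicate 4, being -0.62 and -0.53 without it, and were not called without replicate 1 (-2.06 and -0.97) or replicate 2 (-2.28 and -1.39) or in a fit of the WTHER2-2 arrays alone. WTHER2-2 replicate 4 had the lowest median raw intensity (83.49) and the lowest share of detected probes (35.8%) of all arrays. The part of this in the 2 differences was not tested. Gata3 was lower by -0.91 ± 0.23 and Tbx3 ILMN_3061990 higher by 0.76 ± 0.19 (adjusted p = 0.0128 and 0.012), under the size limit. Gata3 was called without WTHER2-2 replicate 3 (-1.20 ± 0.25) and Esr1 likewise (-1.20 ± 0.34), and Gata3 also with arrays aligned on their median (-1.13 ± 0.31).

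The same contrast in the other lines gave no calls: BeadChip 2 minus BeadChip 1 in MI6 and in MI7, and BeadChip 6 minus BeadChip 5 in WTHER2-1, had 0 of 9 member probes and 0% of all tested probes called, and 0 member probes at an unadjusted p under 0.05, where 1.6%, 2.7% and 4.79% of all probes in MI6, MI7 and WTHER2-1 had one. Beside the Foxa1 and Tbx3 differences between the WTHER2-2 BeadChips, 11 of the 12 measured luminal epithelial markers were called lower and 8 of 8 measured fibroblast markers called higher on BeadChip 4, with median log2 differences of -3.33 and 3.56, while 18.3% of all genes, each taken by its probe with the highest mean, were called. Of 6 measured basal markers 2 were called higher and 2 lower, and of 4 measured endothelial and fat cell markers 1 was called higher. The part of these markers in the members' differences was not tested.

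**Figure D4:**
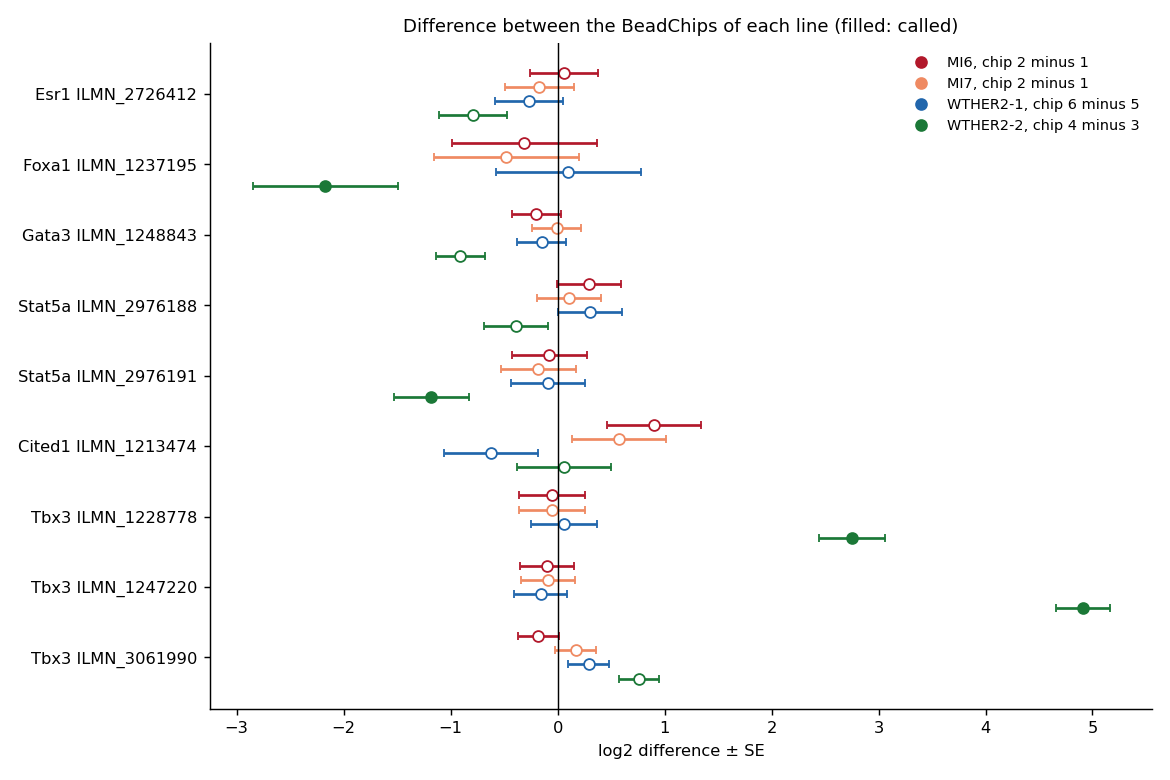
Log2 difference ± SE (horizontal axis) between the 2 BeadChips of each line for the 9 tested member probes (rows). Filled points were called, and where a group did not detect a probe (Tbx3) the point is the fitted difference and no measured fold. In WTHER2-2 Tbx3 ILMN_1247220 is fitted at 4.91 and Foxa1 at -2.17, and no point of MI6, MI7 or WTHER2-1 is filled.

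**Figure D5:**
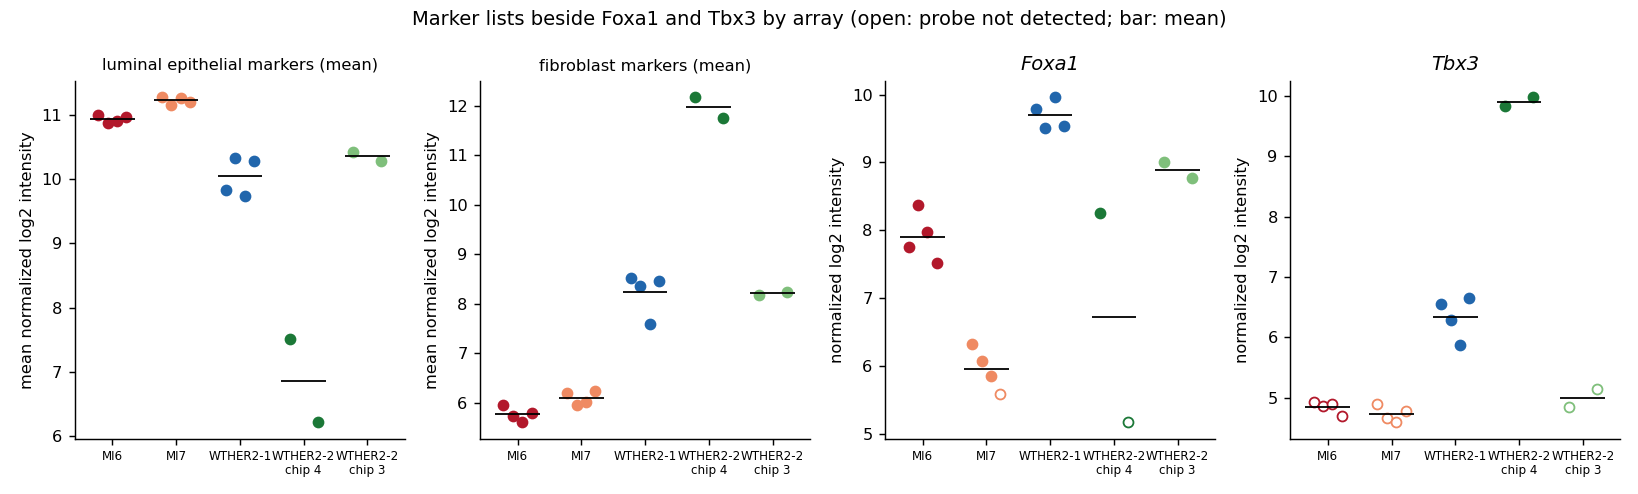
Mean normalized log2 intensity (vertical axes) of the luminal epithelial and fibroblast marker lists by array, beside Foxa1 (ILMN_1237195) and Tbx3 (ILMN_1247220), with bars at group means and open points for undetected probes. The BeadChip 4 arrays of WTHER2-2 are lowest for the luminal list (7.51 and 6.21) and highest for the fibroblast list (12.17 and 11.76) and for Tbx3.

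The receptors' targets and partners were read from lists, each gene by its passing probe with the highest mean. Of 10724 genes, 5.52% were apart between the transgenes, 0.774% passed the line-level test and 20.3% its unadjusted p, 52.3% were higher in the d16HER2 lines, and the median difference was 0.03. Of 16 oestrogen and progesterone receptor targets, 11 were measured, 5 higher and 6 lower in the d16HER2 lines, with a median of -0.03. Among them 1 was apart, Id4, a helix-loop-helix inhibitor, at 9.95 ± 0.33 in MI6 and 9.41 ± 0.76 in MI7, against 6.63 ± 0.32 for WTHER2-1 and 5.26 ± 0.87 for WTHER2-2 (SD, n = 4). The line-level test called 0 of the 11 and 3 at its unadjusted p, and Id4 differed by 3.74 ± 0.55 (adjusted p = 0.0844).

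Of 20 genes of the prolactin, JAK2 and STAT5 pathway, 15 were measured, 8 higher and 7 lower, with a median of 0.03. Here 1 was apart and lower, Socs3, a feedback inhibitor of JAK kinases, at 8.93 ± 0.64 in MI6 and 9.55 ± 0.32 in MI7, against 11.77 ± 0.15 for WTHER2-1 and 11.87 ± 1.15 for WTHER2-2. Its line-level difference was -2.58 ± 0.28 (adjusted p = 0.0576), and it was also higher on BeadChip 4 than on BeadChip 3 by 1.97 ± 0.37 (adjusted p = 0.00211). The line-level test called 0 of the 15 and 3 at its unadjusted p.

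Of 27 nuclear receptors and coregulators, 18 were measured, 9 higher and 9 lower, with a median of -0.02, and 3 were apart. Gper1, a membrane receptor that binds oestrogens, was undetected in the d16HER2 lines at 4.87 ± 0.09 in MI6 and 5.18 ± 0.24 in MI7, against 8.51 ± 0.47 for WTHER2-1 and 9.30 ± 0.54 for WTHER2-2, which puts the d16HER2 lines at least 7.36-fold below WTHER2-1 and at least 12.7-fold below WTHER2-2. It was the 1 gene of the list past the line-level test (adjusted p = 0.0492), and 6 passed its unadjusted p. Gper1 passed the detection filter through WT HER2 arrays alone, so its calls follow in part from that filter. Rxra, the shared partner of many nuclear receptors, was lower at 6.51 ± 0.30 and 6.78 ± 0.12 in MI6 and MI7, against 7.80 ± 0.14 and 8.17 ± 0.57 in WTHER2-1 and WTHER2-2. Esrrg, an oestrogen-related orphan receptor, was higher at 6.88 ± 0.26 and 6.85 ± 0.11, against 4.72 ± 0.10 in WTHER2-1 and 5.04 ± 0.36 in WTHER2-2. WTHER2-1 did not detect it and lay at least 2.49-fold lower, and WTHER2-2 detected it on 1 array. Esrrg reached the detection filter only through the d16HER2 arrays, so its calls follow in part from that filter.

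Of 32 other luminal lineage and partner transcription factors, 23 were measured, 13 higher and 10 lower, with a median of 0.05. Apart and lower were Msx1, a homeobox factor (5.13 ± 0.12 in MI6 and 5.03 ± 0.11 in MI7, against 9.50 ± 0.24 for WTHER2-1 and 7.60 ± 0.29 for WTHER2-2), and Gata6, a GATA family factor (4.75 ± 0.09 and 5.04 ± 0.11, against 8.94 ± 0.19 and 7.72 ± 0.94). Both were undetected on all d16HER2 arrays, at least 14.7-fold and 9.92-fold below WTHER2-1 and at least 3.93-fold and 4.26-fold below WTHER2-2. Msx1 and Gata6 also passed the detection filter through WT HER2 arrays alone, so their calls follow in part from that filter. Apart and higher was Klf5, a Krüppel-like factor of epithelia (12.36 ± 0.32 and 11.92 ± 0.45, against 10.88 ± 0.47 and 10.73 ± 0.53). The line-level test called 0 of the 23 and 9 at its unadjusted p. Between the WTHER2-2 BeadChips, 8 of the 23 were higher and 15 lower by sign on BeadChip 4, and 2 were called higher and 6 lower, 34.8% in all, where 18.3% of all genes were called (893 higher and 1065 lower of 10724).

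Among the 6 member genes with a tested probe, Pearson correlations over the 16 arrays ran from -0.63, between Gata3 and Tbx3, to 0.66, between Foxa1 and Stat5a, so the members did not vary as 1 group. These arrays share lines and BeadChips, and the values are descriptions. The genes most correlated with each member over the 16 arrays were Tnfrsf11b (0.961) and Armc3 (0.948) for Esr1, Tns4 (0.95) and Bpifb4 (0.912) for Foxa1, and Ifngr1 (0.943) and Msrb2 (0.907) for Gata3. For Stat5a they were Ddah1 (0.88) and Mov10 (0.877), for Cited1 Tmem30a (0.911) and Lipk (0.892), and for Tbx3 Papss2 (0.992) and Brinp3 (0.989).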

How the data were processed

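Intensities of 16 arrays were analysed. Per the file headers the authors deposited an average signal (intensity) per probe without normalization and a detection p-value beside it, which ranks the probe among negative control beads. The submitters' processing notes name BeadStudio without a version, and a genome build is not given in the sources used here. The authors also deposited a quantile-normalized intensity table, on the linear scale and floored at 1, which was put on the log2 scale as an alternative.

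Raw intensities were background-corrected with limma's normexp model on negative controls inferred from the detection p-values, offset 16, quantile-normalized and put on the log2 scale (neqc; R 4.3.3, limma 3.58.1, statmod 1.5.0). The offset makes differences of dim probes smaller, and a shift common to most genes is lost in quantile normalization. The precision is limited by the number of arrays. Of all probes, 34885 had 1 gene symbol in the annotation, 18 had several symbols and 10378 were unnamed.

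Probes with a detection p under 0.05 on at least 4 arrays were fitted in limma (trend), with Benjamini-Hochberg adjustment over all 20152 of them, in 3 fits: 4 lines to 16 arrays, 8 cells of line by BeadChip, and 4 line means, 2 against 2. Scripts were tested on simulated data. Arrays were grouped by the labels' cell line and numbered in accession order, and BeadChips 1 to 6 are numbered here from the chip part of the array names in the labels. Named beyond the members were, per list, up to 4 genes with all 4 line pairs apart, and the 2 genes most correlated with each member. The lists were the 4 of targets, pathway, receptors and factors, and 5 of cell type markers: of the leukocyte markers 1 of 12 was measured, with 0 apart, of the endothelial and fat cell markers 4 of 10, with 1 apart and lower, of the basal markers 6 of 13, with 2 apart and lower, of the luminal markers 12 of 14, with 2 apart and higher, and of the fibroblast markers 8 of 12, with 3 apart and lower. The basal markers apart, Trp63 and Snai2, and Col6a2 of the fibroblast markers apart were undetected on all d16HER2 arrays. They passed the detection filter through WT HER2 arrays alone, so their calls follow in part from that filter. In the d16HER2 lines all 12 measured luminal markers were higher (median difference 1.79) and all 8 fibroblast markers lower (-2.59). Of the basal markers 1 was higher and 5 lower, of the endothelial and fat cell markers 2 and 2, and the leukocyte marker was lower. Over all genes 52.3% were higher and 5.52% apart. These are differences of line means, which average both WTHER2-2 BeadChips. On BeadChip 3 alone Cdh1, Cldn3 and Itga2 were above both d16HER2 lines (12.06, 13.45 and 8.10, against at most 11.95, 13.38 and 8.09). Vim was below both there (9.83, against 9.92 and 11.20), and Cldn4 lay between them. The other measured luminal and fibroblast markers kept their direction. The part of these markers in the members' differences between transgenes was not tested. The members and lists were chosen with earlier results of these data known. Alternatives covered background, offset, normalization, source table, detection filter, probe choice, each array, line and WTHER2-2 BeadChip left out, and BeadChip as a block. Promoter sequences are from RefSeq (GRCm38.p6).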

Additional observations from a re-analysis of the deposited data

Results flagged for a closer look

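In 1 of 36 groups of 4 arrays, taken over the 9 tested member probes and 4 lines, an array stood far from the other 3. Tbx3 ILMN_3061990 was at 5.79 on MI7 replicate 4, against 5.33 to 5.40 on the other MI7 arrays, a gap of 0.842 of the group's whole range, where 0.829 is the critical value for 4 values. Chance gives such a gap in about 1 of 20 groups. The other Tbx3 probes were undetected on that array.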

How the results depend on the processing

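No paired analysis was possible because the replicate numbers were given in accession order and pair no arrays, while the BeadChips that MI6 and MI7 share were fitted as a block. Leaving out each array in turn gave 0 to 0 member probes with all 4 line pairs apart, 0 to 1 past the line-level test, 0 to 1 called between MI6 and MI7, 2 to 4 between WTHER2-1 and WTHER2-2 and 1 to 5 between BeadChip 4 and BeadChip 3 of WTHER2-2. The counts with all arrays were 0, 0, 0, 3 and 4. The line-level 1 was Tbx3 ILMN_1247220 without WTHER2-2 replicate 4. The MI6 and MI7 1 was Cited1 without MI7 replicate 4 and Foxa1 without WTHER2-2 replicate 4. Between the BeadChips the count was 2 without WTHER2-2 replicate 1, 2 without replicate 2 and 1 without replicate 4, and 2 in a fit of the WTHER2-2 arrays only.

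Without the BeadChip 3 arrays of WTHER2-2, 1 member probe (Tbx3 ILMN_1247220) had all 4 pairs apart, 1 (Foxa1) was called between MI6 and MI7, and 5 between WTHER2-1 and WTHER2-2. Without the BeadChip 4 arrays 1 (Foxa1) was called between MI6 and MI7, as with BeadChip as a fixed block (1, Foxa1) and as a random block (1, Cited1, correlation 0.291). The line-level count was 1 without line WTHER2-1 (Esr1) and 1 without line WTHER2-2 (Tbx3 ILMN_1247220), where the lone line is assumed to vary like the others. Reversed were Tbx3 ILMN_1247220 in WTHER2-1 minus WTHER2-2 without the BeadChip 4 arrays (1.37) and Foxa1 in the d16HER2 lines minus BeadChip 4 without WTHER2-2 replicate 4 (-1.33), whereas it was 1.77 without replicate 3. Other alternatives kept these counts within 1.5 times. The causes were not tested. Dim probes limit precision: where a group is undetected, the fitted difference is larger than the bound the signal allows.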

Other observations

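Between the WTHER2-2 BeadChips, 2 of 11 measured hormone receptor targets (18.2%), 4 of 15 genes of the prolactin pathway (26.7%), 3 of 18 nuclear receptors and coregulators (16.7%) and 8 of 23 other luminal factors (34.8%) were called, where 18.3% of all genes were. The genes that follow were named after their values were seen. The milk protein genes Csn2 and Csn1s1 were undetected on BeadChip 3, and BeadChip 4 was at least 19.4-fold higher for Csn2 (means 9.80 and 4.89) and at least 10.7-fold higher for Csn1s1 (means 8.94 and 5.04; limma, adjusted p = 0.000932 and 0.00626). Csn3, also a milk protein gene, was not called, at 12.73 on BeadChip 4 and 14.83 on BeadChip 3 (-2.11 ± 0.85, adjusted p = 0.0876). Cish, a classical STAT5 target, was lower on BeadChip 4 by -1.91 ± 0.56 on the log2 scale (adjusted p = 0.0248). Of the epithelial factors, Grhl2 was lower by -4.13 ± 0.53, Elf3 by -4.0 ± 0.54 and Tfap2c by -3.04 ± 0.83, as was Cited4 by -3.41 ± 0.66 (adjusted p from 0.00013 to 0.0177). Gata2, undetected on BeadChip 3, was at least 23.8-fold higher on BeadChip 4 (means 10.09 and 5.46, adjusted p = 2.22e-06). The retinoic acid receptor gene Rarb was at least 12.2-fold higher (means 9.13 and 5.29, adjusted p = 0.000127). The same marker lists moved with these genes, and their part in the result was not tested.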
